A study of Mus musculus with 4 samples.

Results

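Chimeric Ago2 eCLIP joins a miRNA to the RNA it was bound to, so each read names both partners. The regions described here were the nuclear peaks at which an unusually large number of different miRNAs were joined to the same short stretch of RNA. A peak was taken as a hub when 20 or more miRNA names were listed at it, it did not lie on the mitochondrial chromosome, and it did not overlap the 45S ribosomal RNA locus. By this rule 383 of 20754 peaks were hubs in the MOV control library and 460 of 21872 in the MOV mimic library. The members were thus chosen by a measured value, the number of names, which is given below as a description with no test.

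The study asked whether lowering of miR-1 is needed for muscle growth under load. Both libraries came from the plantaris muscle, a hindlimb muscle, of male C57BL/6J mice of 5 months after 10 days of mechanical overload (MOV, in which part of the synergist muscles is removed so that the plantaris carries their work). The MOV control library came from the left plantaris injected with lentivirus carrying a control sequence and the MOV mimic library from the right plantaris injected with lentivirus carrying a miR-1a-3p mimic, and both vectors carried TurboGFP under a CMV promoter. Each group had 1 library (n = 1), so no difference between the libraries was tested. Intervals for reads, and for their shares and ratios, cover counting error only. Those for medians and for shares of hubs treat hubs as separate units, although many abut. No interval covers spread between muscles. The lentivirus reaches part of the tissue, and the methods also describe amplification with a miR-1 primer. No sham or untreated muscle was in this assay, and the matched input libraries were not analysed here, so the abundance of each RNA was not measured. In whole muscle, fewer cells of a type and less RNA per cell cannot be told apart.

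Ago2 carries a mature miRNA and pairs it with target RNAs mainly through the seed, bases 2 to 8 of the miRNA. Skeletal muscle is known for a small set of very abundant miRNAs, the myomiRs, of which miR-1a-3p and miR-133a-3p are the main ones in adult fibres. miR-206-3p is enriched in slow and regenerating fibres and shares the seed of miR-1a-3p, and miR-133b-3p shares that of miR-133a-3p. The let-7 and miR-15/16 families are groups of many near copies with 1 seed, so a target of 1 member can be listed under several names.

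The mature sequences below belong to miRNAs that led hubs or carried the contrasts described later. They are RefSeq sequences (GRCm38.p6), written 5′ to 3′ with the seed in capitals. Of 659 miRNA names in the files, 543 matched a RefSeq mature sequence and 9 were given a seed from a related name. The myomiRs with a matched sequence were these 2, with a seed each:
miR-206-3p: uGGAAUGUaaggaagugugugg
miR-133b-3p: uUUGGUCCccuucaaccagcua
The let-7 family has the seed GAGGUAG, and its members let-7a-5p, let-7c-5p and let-7f-5p, which led hubs, are shown for it:
let-7a-5p: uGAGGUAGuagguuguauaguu
let-7c-5p: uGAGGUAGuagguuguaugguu
let-7f-5p: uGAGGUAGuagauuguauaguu
miR-15a-5p and miR-16-5p shared a seed and were listed with miR-503-5p at a Malat1 hub:
miR-15a-5p: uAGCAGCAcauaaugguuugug
miR-16-5p: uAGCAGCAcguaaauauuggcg
miR-503-5p: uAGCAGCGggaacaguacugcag
The long noncoding RNA H19 had neighbouring hubs led by miRNAs with different seeds, and miR-152-3p was listed after the leaders at the deepest of them:
miR-130a-3p: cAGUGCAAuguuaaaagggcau
miR-152-3p: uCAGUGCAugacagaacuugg
miR-199a-5p: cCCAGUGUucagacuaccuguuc
miR-29a-3p: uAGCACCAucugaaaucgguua
miR-127-3p: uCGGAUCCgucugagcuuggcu
Further miRNAs led hubs in several genes or 1 sharply focused hub:
miR-27a-3p: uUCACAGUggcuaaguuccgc
miR-23a-3p: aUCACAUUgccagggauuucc
miR-22-3p: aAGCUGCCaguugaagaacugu
miR-26a-5p: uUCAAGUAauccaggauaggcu
miR-24-3p: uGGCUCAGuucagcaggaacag
miR-6236: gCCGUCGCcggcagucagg

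Hubs were few but held a large part of the chimeric reads. They were 1.85% of 20706 nuclear peaks in the control library and 2.11% of 21821 in the mimic library. They held 57761 of 185090 nuclear chimeric reads in the control library, a share of 31.2% (95% Clopper-Pearson interval 31.0 to 31.4). In the mimic library they held 76258 of 207823 reads, a share of 36.7% (36.5 to 36.9). The reads are the deposited estimated values per miRNA and peak, and they need not be whole. The whole mimic library held 259207 chimeric reads against 232408 in the control library, 1.1153 times as many (0.16 on the log2 scale), and every ratio below is mimic over control before any division by these totals.

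A median hub had 27 miRNA names in each library, against 3 at the other nuclear peaks. The median hub had 92.4 reads in the control library and 100.2 in the mimic library, against 3.28 and 3.21 reads at the other nuclear peaks. Hubs were also slightly longer, with median lengths of 68 and 69 nt against 58 and 59 nt. Grouping names by seed reduced the count to a median of 21 seeds per hub in the control library and 20 in the mimic library, and 216 and 243 hubs still had 20 or more seeds.

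The number of names followed the number of reads. Among nuclear peaks with 300 or more reads, 50 of 54 in the control library and 60 of 64 in the mimic library were hubs. Of those with 100 to 300 reads, 69.8% and 76.0% were hubs, and of those with fewer than 10 reads, 0.153% and 0.156% were. Over all nuclear peaks Spearman's rho between names and reads was 0.55 in each library, and within hubs it was 0.39 and 0.41. These are correlations across peaks of 1 library, which share its depth and are not independent.

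Much of the length of the name lists came from very small values. In the control library 55.6% of the names listed at hubs had an estimate under 1 read, and together these held 4.16% of hub reads. In the mimic library the figures were 55.9% and 3.78%. The median hub had only 4 names with 3 or more reads in each library. When names under 1 read were left out, 77 control hubs and 91 mimic hubs kept 20 or more names. Some hubs rested on few reads, since 59 control hubs and 65 mimic hubs had fewer reads than names, and 3 and 4 had under 1 read in all.

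Peaks just outside and just inside the rule had similar depths. In the control library 42 peaks had 19 names with a median of 33.9 reads, and 30 peaks had 20 names with a median of 44.98 reads. In the mimic library 44 peaks had 19 names with a median of 44.9 reads, and 48 peaks had 20 names with a median of 47.0 reads. Some deep peaks stayed outside, such as a Ttn peak at chr2:76750928-76751076 with 395 reads and 17 names in the control library.

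**Figure D1:**
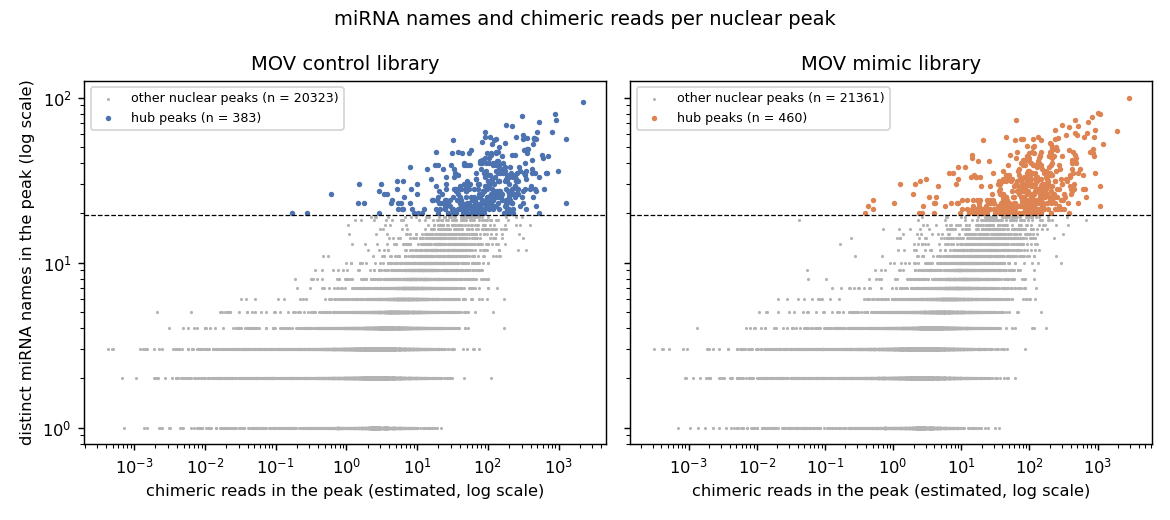
Number of distinct miRNA names (vertical log axis) against estimated chimeric reads (horizontal log axis) for each nuclear peak of the control library (left, hubs in blue) and the mimic library (right, hubs in orange), with other nuclear peaks in grey and the minimum of 20 names as a dashed line. Peaks with more reads had more names, with Spearman's rho of 0.55 in each library over all nuclear peaks.

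Hubs were not all separate sites. In the control library 166 hubs and in the mimic library 204 hubs abutted another hub on the same strand. These made 96 and 118 pairs of neighbours, which left 287 and 342 stretches. Abutting hubs shared a median of 92.5% and 91.0% of the shorter name list. Hubs shorter than 20 nt numbered 50 and 60 and had a median of 11.9 and 13.1 reads, against 104 and 113 in longer hubs.

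The largest groups of hubs lay in transcripts of the contractile apparatus of the fibre. A total of 94 genes hosted hubs in the control library and 101 in the mimic library, of 6644 and 6938 genes with any nuclear peak. Protein-coding genes hosted 354 and 434 hubs, long noncoding RNAs 17 and 16, and 3 hubs in each library lay in no annotated gene of their strand. Myosins and other thick filament genes, whose products form the motor filament of the sarcomere, hosted 24.3% of control hubs and 23.9% of mimic hubs, against 0.905% and 0.833% of the other peaks. The giant scaffold genes, Ttn (titin, the molecular spring of the sarcomere) and Neb (nebulin, the thin filament ruler) among them, hosted 12.3% and 19.8%, against 1.61% and 1.33% of the other peaks. Thin filament genes, which include actins, troponins and tropomyosins, hosted 8.36% and 7.61%, against 0.310% and 0.290% of the other peaks. Genes outside every list used here hosted 19.3% and 18.3% of hubs but 88.7% and 89.6% of the other peaks.

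The genes with the most hubs were Ttn, with 28 control and 66 mimic hubs, and Myh1 (the IIx myosin heavy chain), with 33 and 43. They were followed by Myh4 (the IIb heavy chain) with 25 and 24, Neb with 19 and 24, and Myh2 (the IIa heavy chain) with 18 and 21. Col1a1, a chain of type I collagen, had 12 in each library, and Atp2a1, the calcium pump of fast fibres, had 12 and 10. Myl1, a myosin light chain, had 10 and 11, Col3a1, the type III collagen chain, had 11 and 6, and Ckm, muscle creatine kinase, had 9 and 8. Car3, a cytosolic carbonic anhydrase, had 7 and 10. The heavy chain genes and the actin genes are near-identical in places, so the split of reads among Myh1, Myh2 and Myh4, and among actins, is uncertain.

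The density of hubs along a gene differed greatly. Every peak of Acta1 (skeletal alpha-actin) and of H19 was a hub, 8 and 7 peaks in Acta1 and 13 and 12 in H19. The same held for other genes, among them Myh1 with 33 and 43 peaks and Mylpf with 7 and 6. Ttn had 237 peaks in the control library and 239 in the mimic library, so its hubs were a minority of them. Ttn hubs held 7139 of the 17514 reads of the gene in the control library and 14648 of 23568 in the mimic library.

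Collagens hosted 28 hubs in each library, or 7.31% and 6.09% of hubs against 0.846% and 0.782% of other peaks. Other genes of the extracellular matrix hosted 4.18% of control and 3.04% of mimic hubs, against 1.16% and 1.11% of other peaks. Nuclear-encoded respiratory chain genes hosted 6 hubs in each library, or 1.57% and 1.30% of hubs against 0.463% and 0.417% of other peaks. Chaperones hosted 6 and 5, or 1.57% and 1.09% against 0.399% and 0.328%. Translation factors hosted 2 in each library, or 0.522% and 0.435% of hubs, near their 0.433% and 0.407% of other peaks. Genes of the Argonaute pathway hosted none, and they held only 0.315% and 0.267% of other peaks. Structural and long noncoding RNAs hosted 19 and 18 hubs with 9.07% and 8.74% of hub reads. With Lars2, a protein-coding gene placed in that list, they hosted 5.48% and 4.78% of hubs against 0.241% and 0.225% of other peaks.

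The hosts carried markers of muscle and of fibroblasts. All 8 fibre markers examined (Acta1, Ckm, Ttn, Neb, Mb, Myh4, Tnnt3 and Atp2a1) hosted hubs, 112 in the control library and 152 in the mimic library. Of 5 fibroblast markers, 4 hosted hubs, 28 and 27 in all. Markers of endothelium, macrophages, erythrocytes, Schwann cells and adipocytes hosted none, and their summed chimeric reads stayed below 0.03% of nuclear reads for each list. Of the marker lists examined, only those of fibres and fibroblasts thus hosted hubs. Peaks with few reads were rarely hubs, so the lack of hubs in the other lists says little about those cells. In the mimic library 1 hub lay in B2m, a gene of the blood and immune list.

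**Figure D2:**
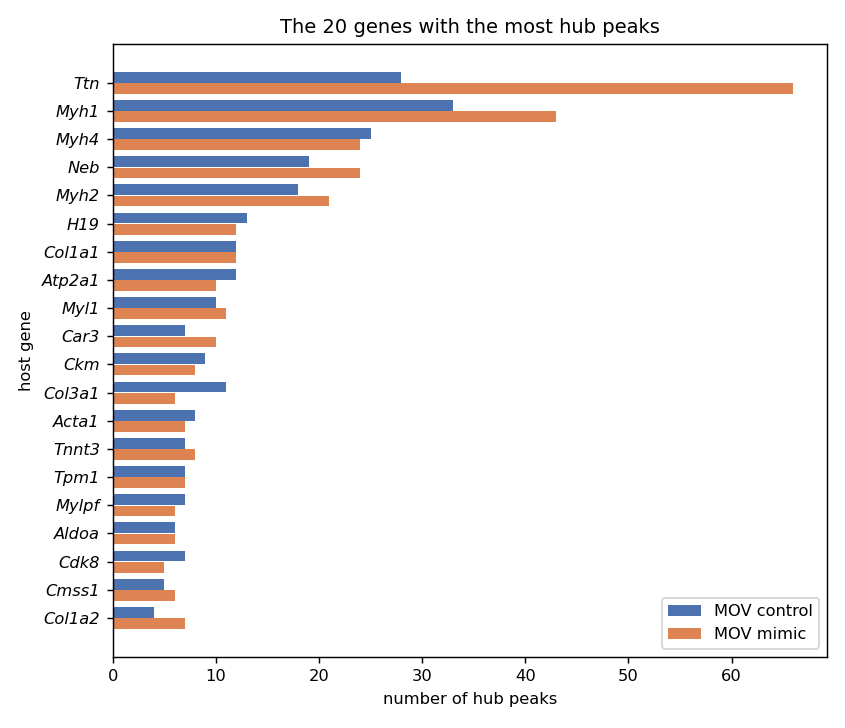
Number of hub peaks (horizontal axis, from 0) in the 20 genes with the most hubs, in blue for the control and in orange for the mimic library. Ttn had 28 control and 66 mimic hubs, and Myh4 had 25 and 24.

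miR-133a-3p was the dominant miRNA of hubs. The miRNA with the most reads at a peak is called its leading miRNA. miR-133a-3p led 138 control hubs, a share of 36.0% (31.2 to 41.1), and 197 mimic hubs, a share of 42.8% (38.3 to 47.5). It led 16.6% and 17.2% of the other nuclear peaks. It was listed at 364 and 443 hubs, counts partly set by the rule, which chose peaks with long name lists. It held 27.0% and 30.7% of hub reads against 18.4% and 18.5% of reads at other peaks.

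miR-1a-3p, the miRNA raised in the mimic muscle, was also listed at most hubs but led fewer of them. It was listed at 326 control hubs and at 414 mimic hubs, or 85.1% and 90%. Hubs were chosen for their long name lists, so these counts were partly set by the rule. A listing also counts values under 1 read. Of 233 paired sites that were hubs listing miR-1a-3p in both libraries, 93 had 3 or more of its reads in both. miR-1a-3p led 49 and 62, or 12.8% and 13.5% of hubs, against 10.3% and 11.9% of other peaks. Its share of hub reads was 9.21% (8.97 to 9.45) in the control library and 10.2% (9.95 to 10.4) in the mimic library. At other peaks its share was 9.71% and 11.8%, so hubs were not richer in miR-1a-3p than the remaining peaks. The order of the libraries turned with the setting, since the hub share was 9.12% and 8.36% when names under 1 read were left out, and 15.5% and 15.03% when miR-206-3p was added.

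Other leading miRNAs each led a small part of the hubs. miR-378a-3p led 18 and 21, miR-206-3p 15 and 14, miR-27a-3p 15 and 12, and miR-29a-3p 14 and 16. let-7c-5p led 13 and 16, miR-22-3p 13 and 12, miR-23a-3p 12 in each, miR-16-5p 10 and 13, and miR-26a-5p 9 and 13. In all, 45 names led control hubs and 42 led mimic hubs. Summed over names with 1 seed, the miR-133 seed UUGGUCC led 138 and 188 hubs, the miR-1/206 seed GGAAUGU 62 and 74, and the let-7 seed GAGGUAG 47 and 58.

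The muscle miRNA list held 54.5% of control and 58.1% of mimic hub reads, against 41.8% and 43.0% at other peaks. A list of 12 low-complexity rodent repeat miRNAs, of which 3 and 4 were found at hubs, held 0.0541% and 0.0520% of hub reads. None of them led a hub in either library, whereas the list held 2.92% and 2.20% of reads at other peaks.

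**Figure D3:**
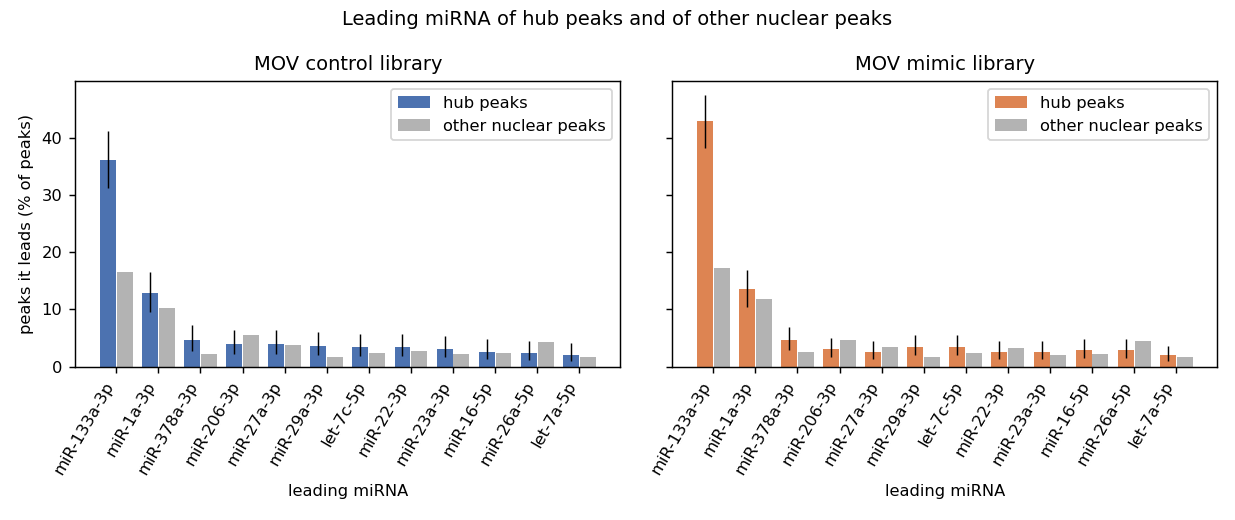
Share of peaks led by each miRNA (vertical axis, percent of peaks, from 0) among hubs (coloured bars, with 95% Clopper-Pearson intervals as lines) and other nuclear peaks (grey bars), for the control library (left) and the mimic library (right). miR-133a-3p led 36.0% and 42.8% of hubs against 16.6% and 17.2% of other peaks.

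A long name list did not mean an even one. The leading miRNA held a median of 41.3% (37.8 to 44.2) of a hub's reads in the control library and 41.6% (38.8 to 45.1) in the mimic library. With names of 1 seed added together, the medians were 59.6% and 58.8%. The effective number of miRNAs, the number of equally abundant miRNAs that would give the same evenness, had a median of 4.21 and 4.26, against 2.13 and 2.12 at other peaks. The leading miRNA held more than 50% of reads in 127 and 169 hubs and less than 20% in 54 and 51.

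The most focused hubs were bound almost wholly by 1 seed. In Fn1, the gene of the matrix protein fibronectin, the hub at chr1:71628443-71628544 (mm10, minus strand) had 1126 reads of miR-206-3p among 1269 in the control library, a share of 88.7%. In the mimic library it had 962 of 1101 reads, 87.4%. miR-1a-3p, with the same seed, had 119.7 and 120.2 reads there, so this miRNA did not differ there beyond counting error.

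In Actn3, the alpha-actinin of fast fibres, the hub at chr19:4870909-4870989 had 84.4% of its reads from miR-1a-3p in the control library and 87.1% in the mimic library. A Myh1 hub at chr11:67220413-67220477 had 84.3% and 83.6% from miR-133a-3p. In the mimic library a Ttn hub at chr2:76826469-76826542 had 89.97% of 83.9 reads from miR-24-3p, and in the control library this site had 12 names and 49.1 reads, 81.3% from the same miRNA. A further Ttn site, chr2:76811538-76811699, was a hub of 29 names and 1083 reads in the mimic library with 88.2% from miR-133a-3p. In the control library it was called as 2 peaks of at most 14 names, with 654 reads together.

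At the other end, some hubs had no dominant miRNA. The Acta1 hub at chr8:123892833-123892945 had 80 names and 894 reads in the control library and 81 names and 1025 reads in the mimic library. Its leading miRNA was miR-206-3p with 12.4% of reads in the control library and miR-133a-3p with 14.0% in the mimic library, and its effective number of miRNAs was 14.1 and 14.9. The let-7 family together held 30.3% and 30.8% of the reads of all Acta1 hubs.

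A Ckm hub, chr7:19414954-19415048 in the mimic library, was led by let-7a-5p with 10.1% of 245.6 reads, but the let-7 seed as a whole held 54.5%. In the control library this site had 145.4 reads and let-7i-5p led with 15.7%. This was a hub with many names and 1 main seed. The lowest leading shares in the control library were 9.36% in a hub on chromosome 18 with no annotated gene, 10.3% in Lars2 (miR-127-3p; Lars2 encodes the mitochondrial leucyl-tRNA synthetase) and 10.9% in Cdk8 (miR-378a-3p; a kinase of the Mediator complex). In the mimic library Actn2 had 10.7% (miR-23a-3p) and a second part of the Lars2 stretch 11.4%.

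H19, an imprinted long noncoding RNA that is high in embryonic and regenerating muscle, held the hub with the most names and reads. At chr7:142575787-142575858 (minus strand; 142575784 to 142575856 in the mimic library) 94 miRNA names and 2186 reads were listed in the control library, and 100 names and 2857 reads in the mimic library. Of these names 68 were shared. The ratio of reads was 1.31 (conditional binomial interval 1.24 to 1.38). miR-130a-3p led in both libraries, with 1096 reads (50.1%) and 1476 reads (51.7%). It was followed by miR-199a-5p with 19.7% and 18.7% and miR-152-3p with 7.91% and 6.52%.

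Along a short stretch of H19 the leading miRNA changed from hub to hub. The next hub, starting at 142575741, had 71 and 76 names and was led by miR-199a-5p with 42.1% of 524 reads and 40.1% of 837 reads. The hub at 142576204 to 142576250 had 58 and 59 names and was led by let-7c-5p with 15.8% and 13.9%. The stretch at 142576257 to 142576331 was led by miR-29a-3p, with 30.9% of 569 reads in the control library and 39.2% of 731 in the mimic library. All H19 hubs lay 1670 to 2405 nt from the gene's annotated 5′ end in the control library and 1672 to 2405 nt in the mimic library.

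H19 was the main partner of miR-130a-3p. Its hubs held 1296 of the 1445 nuclear reads of this miRNA in the control library and 1717 of 1854 in the mimic library. The ratio was 1.33 (1.23 to 1.43) at H19 hubs and 0.910 (0.714 to 1.15) at nuclear peaks outside H19, where only 150.0 and 136.5 reads remained.

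miR-127-3p went the other way at H19. The stretch at 142576409 to 142576476 had 781 reads in the control library and 750 in the mimic library, a ratio of 0.960 (0.868 to 1.06), but the share of miR-127-3p was 41.5% and 19.8%. Over all H19 hubs miR-127-3p had 401 and 183 reads, a ratio of 0.456 (0.381 to 0.545). It was also lower at peaks outside H19, with 420 and 298 reads and a ratio of 0.710 (0.610 to 0.825). The difference was thus not limited to H19.

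**Figure D4:**
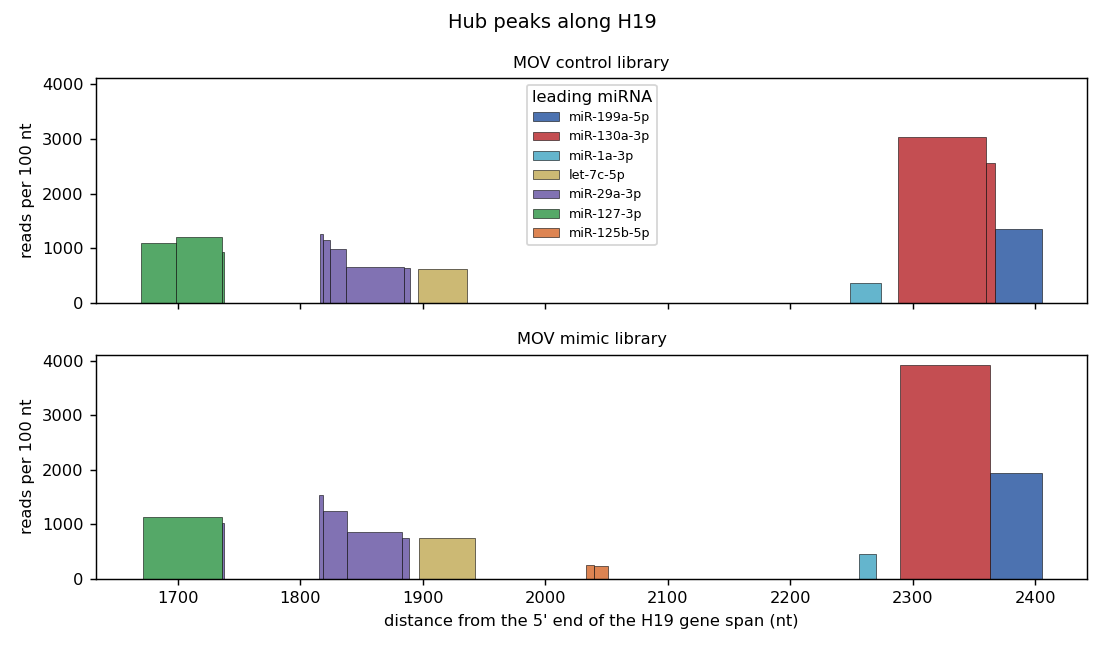
Hubs of H19 in the control library (top) and the mimic library (bottom), by distance from the 5′ end of the gene span in nt (horizontal axis). The height of each bar is the hub's estimated chimeric reads per 100 nt, its width is the hub's length and its colour is the leading miRNA, and the highest bar, led by miR-130a-3p, reached 3036 and 3914 reads per 100 nt.

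Other noncoding hosts had leaders of their own. In Rn7sk, the 7SK RNA that restrains transcription elongation, the hub stretch at chr9:78175304-78175435 was led by miR-378a-3p with 52.7% of 255 reads in the control library and 61.5% of 454 in the mimic library. In Malat1, an abundant nuclear RNA, the stretch at chr19:5797551-5797715 had 209 and 187 reads and was led by miR-503-5p in the control library (24.8%) and by miR-15a-5p in the mimic library (20.3%). The Malat1 stretch at chr19:5797774-5797885 was led by miR-214-3p with 48.1% and 39.4%.

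A further Malat1 site, chr19:5800924-5801068, was a hub only in the mimic library. It had 24 names and 203 reads there, 152 of them from miR-1a-3p, and 17 names and 121 reads in the control library, 94.9 of them from miR-1a-3p. The same miRNA led in both libraries and the count of names crossed the minimum.

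Several protein-coding hosts had nearly all their reads in a very short stretch. In Cmss1, 5 control and 6 mimic hubs held 99.99% and 99.8% of the gene's chimeric reads within 209 and 210 nt of a gene of 304869 nt. Its deepest hub, at chr16:57391571-57391665, had 62 names and 798 reads in the control library and its partner had 58 names and 880 reads in the mimic library. Another Cmss1 hub, at chr16:57391477-57391539, had 77 names and 308 reads and 68 names and 304 reads. miR-133a-3p led both. Lars2 had all its reads within 248 and 241 nt of 95749 nt, and Cdk8 had 96.3% and 98.1% within a stretch of 334 nt of 72080 nt. The sequence of these stretches was not analysed here.

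Hubs at Mir6236 were the only ones within 100 nt of a mature miRNA on their strand. The 4 control hubs and 2 mimic hubs there spanned chr9:110281302-110281353 and had 108 and 97.7 reads. They were led by miR-6236, whose annotated mature sequence (printed above) begins at 110281353, the last base of the stretch. These hubs held 82.9% and 86.5% of the nuclear reads of miR-6236, so its chimeras lay mostly beside its own locus.

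Matrix hubs had leaders that were not all myomiRs. The deepest Col1a1 hub, chr11:94951766-94951878 (94951715 to 94951878 in the mimic library), had 73 names and 904 reads and 80 names and 1073 reads, and was led by miR-133a-3p with 40.9% and 42.5%. miR-133b-3p held a further 24.2% and 23.1%, so the miR-133 seed held most of its reads. Among all collagen hubs miR-133a-3p led 5 and 3, miR-29a-3p 3 and 5 and let-7c-5p 2 and 5. Each further miRNA led 3 or fewer of them in either library. In Postn, which encodes the matricellular protein periostin, the hub at chr3:54361128-54361261 was led by miR-16-5p with 22.6% and 39.0%.

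In Thbs1, the gene of thrombospondin 1, neighbouring hubs differed in their leaders. At chr2:118125876-118126001 miR-1a-3p held 61.7% of 321 reads and 76.6% of 311. At chr2:118126478-118126624 let-7c-5p led in the control library with 24.3% of 671 reads, and the let-7 seed held 91.1% of them. The 147 nt of this control hub were divided into smaller peaks in the mimic library, with 421 reads in all and a ratio of 0.626 (0.554 to 0.710).

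Myosin hubs were mostly led by miR-133a-3p, in 53 of 93 control hubs and 67 of 110 mimic hubs. The deepest, in Myh1 at chr11:67210376-67210460, had 56 names and 1289 reads in the control library and 63 names and 1951 reads in the mimic library, with 46.6% and 49.8% from miR-133a-3p. A Myh1 hub at chr11:67215846-67215926 had 584 reads and its mimic partner 1194, and the hub at chr11:67209031-67209112 had 594 and 922. The Myh1 hub at chr11:67219269-67219356 had 994 reads and its mimic partner 894. The Myh4 hub at chr11:67254007-67254098 had 686 reads and its mimic partner 345. Partners need not have the same boundaries, so these counts can cover different lengths. In each of these hubs miR-133a-3p led in both libraries.

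Giant scaffold hubs were led by miR-133a-3p in 23 of 47 and 47 of 91 cases and by miR-1a-3p in 10 and 15. The Ttn hub at chr2:76766418-76766631 had 44 names and 700 reads and 49 names and 860 reads. The Ttn hub at chr2:76718028-76718136 had 28 names and 614 reads and 35 names and 901 reads. miR-133a-3p led both. In the nearby Ttn hub at chr2:76718337-76718427 let-7c-5p led in the control library with 20.02% and let-7a-5p in the mimic library with 18.5%, names with the same seed.

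Hubs were largely found at the same sites in both muscles. Of 383 control hubs, 321 (83.8%, 79.7 to 87.4) overlapped a mimic hub by at least 1 nt on the same strand, and 366 overlapped some mimic peak. Of 460 mimic hubs, 318 (69.1%, 64.7 to 73.3) overlapped a control hub and 429 some control peak. Of the other nuclear peaks, 52.5% of the control and 49.6% of the mimic peaks overlapped a peak of the other library. Hubs were deeper than these peaks, and the part of depth in their overlap was not tested.

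Paired sites that were hubs in only 1 library mostly lay near the minimum. Pairs were formed from peaks that were each other's largest overlap, which gave 10717 pairs of nuclear peaks. Of these, 277 were hubs in both libraries, 48 in the control library only and 113 in the mimic library only. The control-only hubs had a median of 22 names, and their mimic partners a median of 16 (7 to 19). The mimic-only hubs also had a median of 22 names, and their control partners a median of 15 (7 to 19). Hubs with no overlapping peak in the other library numbered 17 in the control library and 31 in the mimic library. These had medians of 23 and 30 names with maxima of 43 and 58, so some lay far above the minimum, and medians of 25.6 and 17.3 reads. The longest lists among them were in Myh1 (58 names in the mimic library) and Acta1 (45 names in the mimic library and 43 in the control library).

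Most mimic hubs of Ttn that overlapped no control hub lay at control peaks with fewer names than the minimum, some of them well below it. Of the 66 mimic hubs of Ttn, 29 overlapped a control hub, 33 overlapped control peaks of 7 to 19 names, and 4 overlapped none. The reads of the whole gene, 17514 and 23568, differed by a ratio of 1.35.

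At the 277 sites that were hubs in both, the leading miRNA was the same in 228 (82.3%, 77.3 to 86.6), and the leading seed in 256 (92.4%). At the 10279 pairs that were hubs in neither library the shares were 53.8% and 75.1%. A median of 17 names was shared, 58.1% of the control names and 56.0% of the mimic names, but the shared names carried a median of 94.3% of the control reads. The control names absent from the mimic hub thus carried few of the control reads.

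Reads at shared hubs were higher in the mimic library by slightly more than the library as a whole. The summed reads were 50964 in the control library and 60138 in the mimic library, a ratio of 1.18 (1.17 to 1.19), against 1.1153 for all chimeric reads and 1.07 for pairs that were hubs in neither. The median log2 ratio was 0.21 (0.14 to 0.30) with an SD of 0.59 over hubs. Before division by library totals, 188 of 277 hubs (67.9%) had more reads in the mimic library. Among pairs that were hubs in neither library, 52.6% had more. Divided by the library totals, the ratio was 1.06 and the median log2 ratio 0.05. With 1 library per group, spread between muscles was not measured.

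Few hubs differed by 2-fold. Of the 277 shared hubs, 20 (7.22%) had at least 2-fold more reads in the mimic library and 5 (1.81%) at least 2-fold fewer. Of all 10717 pairs, 15.6% were at least 2-fold higher and 12.7% at least 2-fold lower. Among the 1087 pairs with 20 or more reads in both libraries, 4.51% were higher and 1.38% lower by 2-fold, and for shared hubs of that depth the counts were 12 of 250 (4.8%) and 4 (1.6%). These shares were near each other, but the 1087 pairs include the 250 shared hubs. They were selected by a minimum of reads only and not matched to the hubs in depth.

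The largest differences at individual hubs came with different peak boundaries. The largest upward differences were in Myl1 (6.16 to 39.2 reads, a control peak of 7 nt and a mimic peak of 39 nt), in Myh1 at chr11:67204414-67204425 (34.0 to 201 reads, 12 and 43 nt) and in Myh1 at chr11:67217501-67217514 (42.6 to 199 reads, 14 and 39 nt). The largest downward differences were in the Thbs1 hub that was divided in the mimic library, in Myh4 at chr11:67256202-67256278 (337 to 122 reads, 77 and 58 nt) and in Myh4 at chr11:67248595-67248654 (358 to 147 reads, 60 and 36 nt). When overlapping and abutting hubs of both libraries were merged into 399 regions, 224 were hubs in both. Of these, 16 were at least 2-fold higher and 1, in Myh4, at least 2-fold lower. Other peaks were not merged, so no share over all regions stands beside these counts. Of all pairs of peaks, 15.6% were higher and 12.7% lower by 2-fold. Of the pairs with 20 or more reads in both libraries, 4.51% and 1.38% were. The ratio of summed reads over the 224 regions was 1.19 (1.18 to 1.203).

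**Figure D5:**
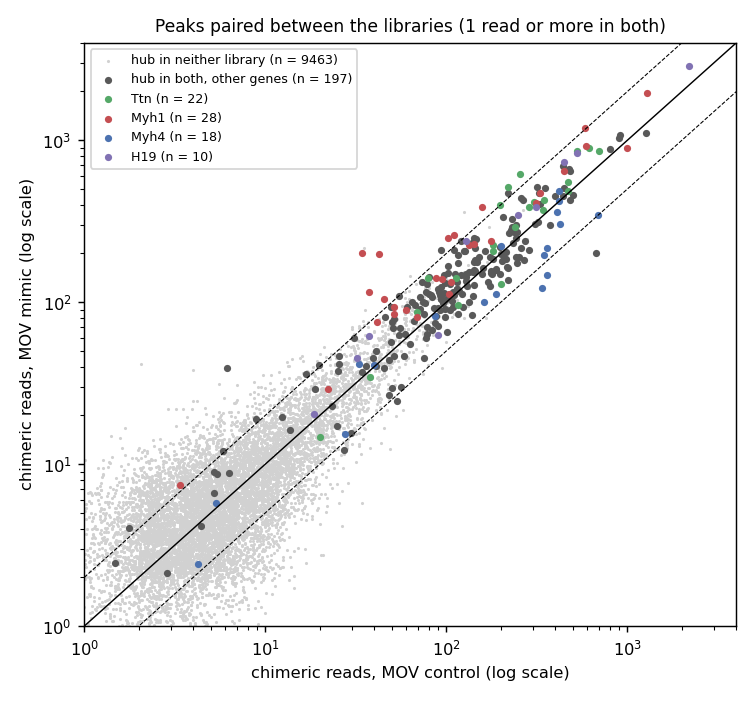
Estimated chimeric reads of paired peaks in the mimic library (vertical log axis) against the control library (horizontal log axis), for pairs with 1 read or more in both. Pairs that were hubs in both libraries are large points, coloured for 4 genes, pairs that were hubs in neither are small grey points, and the lines mark equal reads (solid) and 2-fold differences (dashed). Myh1 hubs lay mostly above equality (27 of 28) and Myh4 hubs mostly below (6 of 18 above).

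Summed over shared hubs, the myosin heavy chains differed in direction. Myh1 had 6217 reads in the control library and 9670 in the mimic library at 28 hubs, a ratio of 1.56 (1.51 to 1.61), and 27 of the 28 were higher. Myh4 had 4500 and 3221 reads at 18 hubs, a ratio of 0.716 (0.684 to 0.749), and 6 of the 18 were higher. Myh2 had 2103 and 2581 reads at 14 hubs, a ratio of 1.23 (1.16 to 1.30). These genes are expressed in different fibre types, and the make-up of fibres in each muscle was not measured here.

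Other genes with shared hubs differed in size and direction. Ttn had 5968 and 8165 reads at 22 hubs, a ratio of 1.37 (1.32 to 1.41). Ckm had 1350 and 1894 reads at 7 hubs, all higher, a ratio of 1.40 (1.31 to 1.51). Tnnt3, the fast skeletal troponin T, had 606 and 933 reads at 7 hubs, a ratio of 1.54 (1.39 to 1.71). H19 had 4025 and 5584 reads at 10 hubs, a ratio of 1.39 (1.33 to 1.45), and 9 were higher. Atp2a1 had 990 and 944 reads at 8 hubs, a ratio of 0.953 (0.871 to 1.04). The glycolytic gene Aldoa (aldolase A) had a ratio of 0.966 and Tnnc2 (troponin C of fast fibres) 0.854. Tnni2 (troponin I of fast fibres) had 1.07 and Tpm1 (tropomyosin) 1.09. At shared hubs all 4 were below the ratio of the whole libraries. Over all nuclear peaks Tpm1, with 3 shared hubs, had a ratio of 1.136, above that of the libraries. Aldoa and Tnni2 stayed below it, with 0.913 and 0.990. Neb, Col1a1 and Cmss1 had ratios of 1.07, 1.04 and 1.06 at shared hubs, below the 1.1153 of all reads. Divided by the library totals, these turn to below 1. Over all nuclear peaks of each gene the ratios were 1.194, 1.045 and 1.122. For Neb and Cmss1 the side of 1.1153 thus depended on the peaks counted.

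By gene group, the median log2 ratio was 0.41 (0.30 to 0.55) for 74 myosin and thick filament hubs, 13 of which were at least 2-fold higher and 2 lower (beside 15.6% and 12.7% of all pairs, and 4.51% and 1.38% of the deep pairs), and 0.29 (0.19 to 0.35) for 35 giant scaffold hubs. It was −0.19 (−0.44 to 0.16) for 20 collagen hubs and −0.12 (−0.77 to 0.44) for 9 hubs of other matrix genes. These intervals, taken over hubs, include 0. All groups are to be read beside the median of 0.06 over the pairs that were hubs in neither library.

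miR-1a-3p had more reads at shared hubs in the mimic library. Its reads there were 4648 in the control library and 6265 in the mimic library, a ratio of 1.35 (1.30 to 1.40), and all other reads at these hubs had a ratio of 1.16 (1.15 to 1.18). At pairs that were hubs in neither library its ratio was 1.25 (1.22 to 1.29). miR-206-3p, with the same seed, had 3369 and 3101 reads, a ratio of 0.921 (0.876 to 0.967). miR-133a-3p had a ratio of 1.22 (1.19 to 1.25). With the reads of miR-1a-3p and miR-206-3p added together, the ratio was 1.17, close to that of the hubs as a whole.

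The difference in miR-1a-3p was uneven among hubs. Over 93 shared hubs with 3 or more of its reads in both libraries the median log2 ratio was 0.47 (0.22 to 0.66), and 66 were above 0. The shared hub with the most miR-1a-3p reads over both libraries, in Ldha (lactate dehydrogenase A) at chr7:46850244-46850347, had 289 and 336. The Actn3 hub described above had 222 and 374. The Ttn hub at chr2:76723209-76723296 had 161 and 403, within a peak of 219 and 515 reads. Some genes had fewer of its reads in the mimic library. Over shared hubs miR-1a-3p had 637 and 421 reads in Myh4 and 397 and 275 in Atp2a1. In H19 its reads were nearly equal, 63.4 and 64.1. The ratio was 1.21 without Ttn and 1.46 without Myh4.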

How the data were processed

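Ago2-bound RNA from 1 MOV control and 1 MOV mimic plantaris muscle was sequenced by chimeric eCLIP. The submitters' processing notes name UMI-tools 1.1.1, cutadapt 3.2, STAR 2.7.7a, Bowtie 1.2.3 and HOMER 4.11 and the build mm10, which the coordinates fit, although the methods name mm9. The deposited files list, for each peak and miRNA, an estimated count of chimeric reads made by the authors, which need not be whole. How the fractions arose is not given in the sources used here. The number of names at a peak depends on them, since many names have values under 1.

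Lines with the same chromosome, start, end and strand were joined into 1 peak. Hubs had 20 or more names and lay outside the mitochondrial chromosome and the 45S locus. The host was the RefSeq gene (GRCm38.p6) with the largest overlap on the peak's strand, and strand was known for 28096 of 49993 genes from the GRCm38 tables and for a further 8338 by name. Exons, untranslated regions and seed matches by coordinate were not analysed here, as the genome at hand was of another build. Python 3.11.15, pandas 2.3.3, numpy 2.4.6, scipy 1.17.1 and matplotlib 3.10.9 were used, and the scripts were tested on simulated data.

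The libraries held 232408 and 259207 estimated reads. Intervals of 95% were Clopper-Pearson for shares, exact Poisson for reads, conditional binomial for ratios and order statistics for medians, on reads rounded to whole numbers. Those on reads cover counting error only. Those for medians and for shares of hubs treat hubs as separate units, although many abut. No test was made between libraries without replicates, and a 2-fold difference was used as the call. Named hubs were, in each library, the 10 with the most reads, the 5 with the most names and the 3 with the highest and 3 with the lowest leading share, with the genes and miRNAs that recurred most and the 3 pairs that rose most, fell most or held the most miR-1a-3p reads. Hubs of Thbs1, Postn, Rn7sk, Malat1 and Mir6236, the further Ttn sites and the reads of miR-130a-3p and miR-127-3p were chosen after their values were seen. The members and gene lists were chosen with earlier results of these data known. Alternatives were other minimums of names, seeds in place of names, lines under 1 read left out, other overlaps, library totals and, chosen after seeing the data, leaving out short hubs, Ttn or Myh4 and merging hubs. Lars2, a protein-coding gene placed in the noncoding list, was left out of that list's counts. Both input libraries were not analysed here.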

Additional observations from a re-analysis of the deposited data

How the results depend on the processing

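No paired analysis was possible because the control and the mimic muscle gave 1 library apiece, and no replicate could be left out. Values are given for the control and then the mimic library. With a minimum of 15 names there were 662 and 786 hubs in 180 and 195 genes, with 38.6% and 44.1% of nuclear reads. A control hub then had a median of 22 names in the mimic library, and the miR-1a-3p ratio was 1.30. With a minimum of 30 there were 152 and 196 hubs in 41 and 47 genes, with 18.003% and 22.2% of reads. Of these control hubs 89.5% overlapped a mimic hub, with a median of 42 names there, the ratio of reads was 1.25 (median log2 ratio 0.32), and miR-1a-3p held 7.37% and 9.36%. Without lines under 1 read there were 77 and 91 hubs in 47 and 46 genes, with 13.9% and 17.8% of reads. The overlap was then 76.6%, the median names 25, the ratio 1.25, the leading share 27.2% and 37.8%, the mimic miR-1a-3p share 8.36% and the miR-1a-3p ratio 1.22. With seeds in place of names there were 216 and 243 hubs in 50 and 53 genes, with 22.4% and 25.9% of reads. Summed by seed, the leading share was 59.6% and 58.8%.

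An overlap of 50% of both peaks gave 69.7% shared control hubs with a median of 26 names, and counting from the mimic hubs gave 69.1%. Division by library totals gave 1.06 for all reads, 1.21 for miR-1a-3p and a median log2 ratio of 0.054. Without the hub with the most miR-1a-3p reads its share was 8.77% and 9.70%. With miR-206-3p added it was 15.5% and 15.03%, and the ratio was 1.17. Of the alternatives chosen after seeing the data, leaving out hubs under 20 nt gave 30.4% and 35.5% of reads. Leaving out Ttn gave miR-1a-3p shares of 8.67% and 9.25%, a ratio of 1.16 for reads and of 1.21 for miR-1a-3p. Leaving out Myh4 gave a control miR-1a-3p share of 8.81%, a ratio of 1.22 for reads and of 1.46 for miR-1a-3p. The ratios of mimic over control kept their direction under these settings. The order of the libraries turned for the miR-1a-3p share in 2 of 7 settings (9.12% and 8.36% without lines under 1 read, and with miR-206-3p added), for the number of host genes in 1 of 4, and for the leading share in 3 of 5 (40.4% and 39.6% at 15 names, 40.8% and 40.4% at 30, and by seed). In all, 61 values moved and 37 stayed the same, and the causes were not tested.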
